A study of Oryza sativa Japonica Group with 10 samples.

Results

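Root tips of rice seedlings were compared with the mature root of the same sampling day, 2 days after the seedlings had been moved into hydroponics, in which roots hang in nutrient solution. The members are 5 of the 10 RNA libraries of the study, 3 of root tip and 2 of mature root, and they were taken by tissue and day as the sample labels give them, without use of any measured value. All plants were rice of the japonica cultivar Nipponbare (GSOR-100), and the labels name no transgene, mutation or applied agent for any group. Seeds germinated for 5 days in darkness at 30 °C, and the seedlings grew on at 26 °C with 12 hours of light a day. At 12 days of age they were moved to Hoagland solution, where the roots were in the light together with the shoots. The pieces of tip comprised meristem and elongation zone. The mature root was everything left of the root system once the tips were off, so it was a mixture of zones and ages. Each library was made from the pooled tissue of 6 plants, and the labels describe the pools as independent biological replicates, so p-values measure the spread between pools. The other 5 libraries, of tip and mature root 6 days after the transfer, are used to estimate the spread between replicates and to set the same contrast beside that of day 2.

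A root grows from a meristem at its end, where cells divide under the cover of a root cap, and behind it the cells elongate by loosening their walls. Further from the end the cells differentiate: the endodermis and exodermis of rice lay down Casparian strips and suberin, the vessels lignify, and transporters load and unload the xylem. Roots can also form plastids with chlorophyll when they are lit. Counts of polyadenylated RNA per gene show how much of each library a gene took, and in such bulk tissue fewer cells of a type and less RNA per cell cannot be told apart.

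The 3 tip libraries held 986907, 1451498 and 2001408 counts, and the 2 mature root libraries held 2776544 and 2161392. A total of 3 counts, taken as the limit of detection, corresponded to 1.6 to 2.69 CPM (reads scaled to a common library size, per 1e6 counts) in a tip library and to 0.953 to 1.45 CPM in a mature root library, or to 0.69 CPM over the tips together and 0.575 CPM over the mature roots together. Counts are PCR-amplified reads without molecular identifiers, so such limits and all counting intervals cover counting error only. Of the 33486 rows given, 19234 passed the filter on low counts, and 637 of those carried no description. Across genes, which are not independent replicates, the correlation of log2 CPM was 0.811 to 0.816 between tips, 0.802 between the mature roots and 0.684 to 0.744 between a tip and a mature root. Pools of a tissue differed by far more than counting error (chi-square over degrees of freedom 17.5 to 35.5), with a biological coefficient of variation of 0.589 in the shared estimate.

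On day 2 the tip was set apart mainly by what was low in it. Of the 19234 rows, 221 (1.15%) had an adjusted p under 0.05 (edgeR, quasi-likelihood test, Benjamini-Hochberg) and are termed called, and 205 of these (1.07% of the rows) were lower in the tip while 16 (0.0832%) were higher. Genes for light harvesting, photosystems, metal binding, suberin, lipid transfer and abscisic acid-linked proteins stood among the lower rows, and glycine-rich wall proteins, a tubulin and peroxidases among the higher. The lower rows had a median log2 fold change of -4.92, or -4.63 when rows without a count in any tip were set at their bound, which is a 24.7-fold difference. The smallest was 4.02-fold. The higher rows had a median log2 fold change of 4.45, or 3.87 with the rows at 0 in the mature roots set at their bound, a 14.6-fold difference. No called row overlapped between the tissues, which is no separate evidence, since the test picked these rows from the same libraries. Among all tested rows 2830 (14.7%) had every tip above both mature roots and 3560 (18.5%) had every tip below both.

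**Figure D1:**
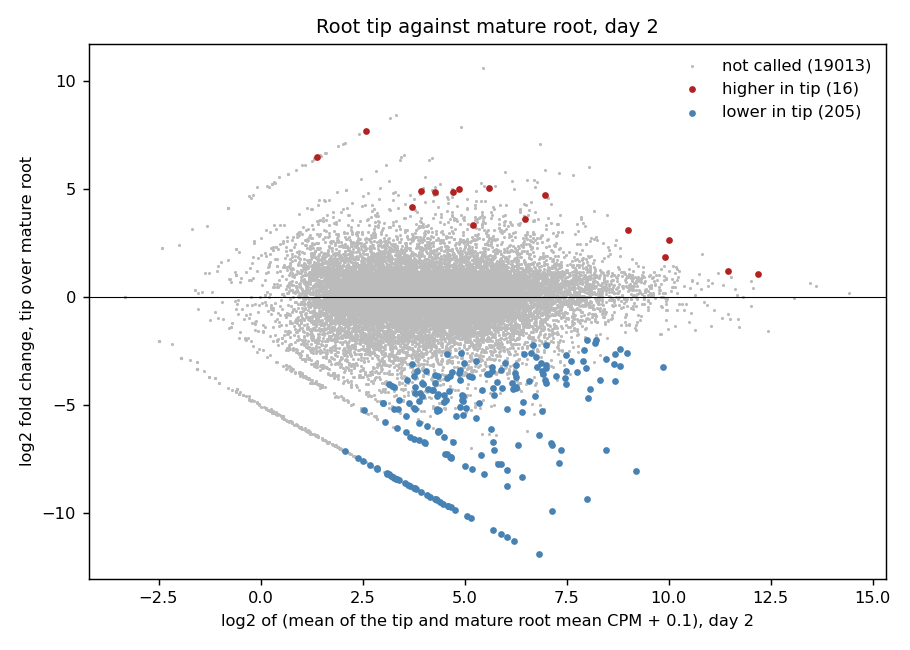
Each point is 1 of the 19234 tested rows, with the log2 of the mean CPM of both tissues plus 0.1 on the horizontal axis and the log2 fold change of tip over mature root on day 2 on the vertical axis. The 205 rows called lower reach across the abundance range and the 16 called higher are few, and the diagonal lines at the lower left and upper left are rows with few or no counts in 1 tissue, whose fitted fold changes depend on the small count added by the model.

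Many of the lower rows were close to absent from the tip. No count was found in any tip for 40 of the 205, between 1 and 3 counts in all for 42, and at least 10 for 88. The 2 mature root pools often differed in the same rows: 87 of the 205 (42.4%) were more than 2-fold apart between them, against 34.9% of all tested rows with a mean of at least 10 CPM in mature root, and 30 were more than 4-fold apart. Of the 205, 147 were higher in mature root library 2 and 58 in library 1. The number of calls rested on single pools: without tip library 1, 2 or 3 it was 54, 42 and 64, without mature root library 1 or 2 it was 312 and 47, and without either mature root library of day 6 it was 91 and 93. A fit of only the 5 day 2 libraries called 4 rows, all lower in the tip, namely a metallothionein (LOC_Os01g74300) and the chlorophyll A-B binding proteins LOC_Os01g41710-ext, LOC_Os06g21590 and LOC_Os04g38410. Whichever day 2 library was left out, 24 of the calls were made again, and all 24 were lower in the tip. They comprised 10 rows for light harvesting, photosystems or Rubisco, 2 for chlorophyll synthesis and the Calvin cycle, 7 of other gene lists and 5 of none.

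Among the rows higher in the tip, the smallest p belonged to a neighbouring pair by locus number for glycine-rich cell wall structural protein 2, a kind of protein deposited in extending and vascular cell walls. LOC_Os10g31660 had 1520, 1600 and 2210 CPM in the tips, against 283 and 304 CPM in the mature roots, a log2 fold change of 2.6 ± 0.38 (SE; edgeR adjusted p = 0.0093). LOC_Os10g31640 had 814, 734 and 1190 CPM in the tips, against 105 and 112 CPM in the mature roots, a log2 fold change of 3.07 ± 0.44 (edgeR adjusted p = 0.00864). Tips and mature roots were far apart in both, and the pools of a tissue lay close together. Such similar copies can share reads. Both lost the call without mature root library 2 (highest edgeR adjusted p over the alternatives 0.0821 for LOC_Os10g31660 and 0.0796 for LOC_Os10g31640). The family had 10 tested rows, of which 6 had every tip above both mature roots, as 14.7% of all rows did, and none had every tip below them, and summed over its 12 rows it took 3480 to 4260 CPM in the tips and 910 to 945 CPM in the mature roots. In the wider list of glycine-rich wall proteins, which was formed after values had been seen, 2 of 16 tested rows were higher and 1 lower. Together these were 18.8% of the list, against 1.15% of all rows. The lower row, LOC_Os01g06310, had no count in any tip, against 21.6 and 45.5 CPM in the mature roots, at least 45-fold lower (edgeR adjusted p = 0.01).

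Cytoskeleton and wall genes followed. A tubulin row, LOC_Os02g07060-ext, whose protein builds microtubules, had 2050, 1310 and 1140 CPM in the tips, against 407 and 439 CPM in the mature roots (log2 fold change 1.82 ± 0.38, edgeR adjusted p = 0.0438). Class III peroxidases are secreted enzymes that stiffen or loosen walls. The abundant peroxidase row LOC_Os04g59260-ext had 3750, 3460 and 4400 CPM in the tips, against 1640 and 1790 CPM in the mature roots (log2 fold change 1.17 ± 0.25, edgeR adjusted p = 0.0472). Another peroxidase, LOC_Os07g01420, had 10, 16 and 27 counts in the tips and none in either mature root, which makes it at least 21.2-fold higher (edgeR adjusted p = 0.0324). In all of them the lowest tip lay above the highest mature root. All lost the call without any 1 of the tips, and in a fit with a block for replicate number. LOC_Os04g59260-ext also lost it with scaling by DESeq2 size factors or with robust dispersion.

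The further rows called higher were less alike between tips. An armadillo/beta-catenin repeat protein (LOC_Os06g46995), of a family of protein-binding repeats, had 143, 121 and 15.5 CPM in the tips, against 3.18 and 2.42 CPM in the mature roots (log2 fold change 5.01 ± 0.99, edgeR adjusted p = 0.0339). A phytase (LOC_Os04g24340-ext), which releases phosphate from phytate, had 70.9, 71.8 and 26.2 CPM in the tips, against 0.318 and 3.39 CPM in the mature roots (log2 fold change 4.98 ± 1.01, edgeR adjusted p = 0.038). An inositol-1,4,5-trisphosphate 5-phosphatase (LOC_Os03g57950-ext), which ends inositol phosphate signals, had 75.4, 64.5 and 12.3 CPM in the tips, against 1.91 and 1.45 CPM in the mature roots (log2 fold change 4.85 ± 0.96, edgeR adjusted p = 0.0347). In these, and in a NUDIX hydrolase (LOC_Os03g59580-ext; 271, 179 and 45.5 CPM in the tips, against 14.6 and 13.1 CPM in the mature roots, log2 fold change 3.57 ± 0.75, edgeR adjusted p = 0.0419), tip library 3 was the lowest tip. The others named were a membrane transporter (LOC_Os03g24870, log2 fold change 4.91 ± 1, edgeR adjusted p = 0.038), a glycosyl hydrolase (LOC_Os04g27980, 4.86 ± 0.99, edgeR adjusted p = 0.0385) and a GATA zinc finger protein (LOC_Os05g50270-ext, 4.17 ± 0.86, edgeR adjusted p = 0.0403), of a family of transcription factors. Tip library 1 was the highest in those last, with 54.8, 71.8 and 44.9 CPM, against a highest mature root value of 1.27, 1.94 and 1.59 CPM. None of the 16 rows was called whichever day 2 library was left out: without tip library 1, 2 or 3 the number called higher was 5, 2 and 6, and without mature root library 1 or 2 it was 4 and 0.

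**Figure D2:**
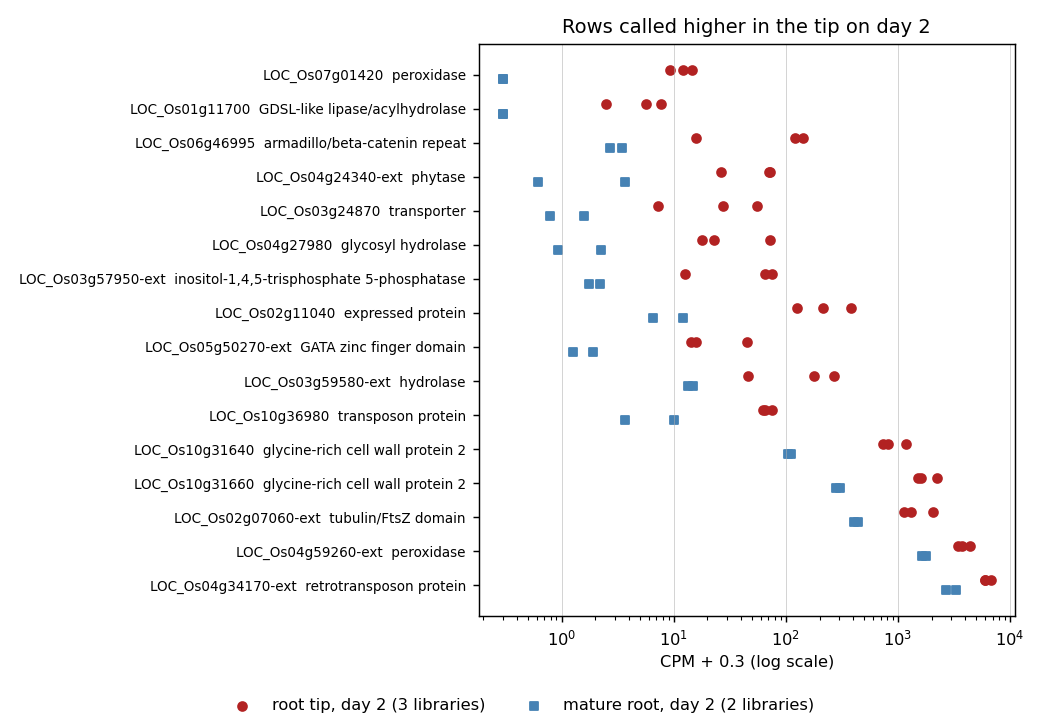
CPM plus 0.3 on a log axis for the 16 rows called higher in the tip on day 2, with 1 red circle for each of the 3 tip libraries and 1 blue square for each of the 2 mature root libraries. The tips lie to the right of the mature roots in every row, and the gap is narrowest in the most abundant rows at the bottom, such as LOC_Os04g59260-ext.

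The labelled tissue was checked against genes of dividing and elongating cells. Ribosomal proteins, tubulins and expansins took a larger share of the counts in every tip than in either mature root. The shares of DNA replication proteins, cyclins, kinesins and histones overlapped between the tissues, and 1 row of these lists, a tubulin, was called. Cytosolic ribosomal proteins, the core of the translation apparatus, took 9.51, 9.52 and 10.8% of all counts in the tips, against 6.74 and 6.26% in the mature roots. Of 247 tested rows none was called. Every tip was above both mature roots in 116 of them (47%, against 14.7% of all rows) and below both in 10 (4.05%, against 18.5% of all rows). The median log2 fold change was 0.64, against 0 over all tested rows. The ribosomal row with the smallest p, LOC_Os03g54890-ext for ribosomal protein L13, had 1440, 1660 and 1990 CPM in the tips, against 712 and 769 CPM in the mature roots (log2 fold change 1.2 ± 0.29, edgeR adjusted p = 0.0718). Translation factors had a median of 0.44 over 64 rows. An elongation factor among them (LOC_Os07g46750-ext) had 572, 861 and 676 CPM in the tips, against 342 and 351 CPM in the mature roots (edgeR adjusted p = 0.183). Ribosome biogenesis and nucleolar proteins had a median of 0.16 over 36 rows. A nucleolar GTP-binding protein (LOC_Os06g09570-ext) had 300, 415 and 601 CPM in the tips, against 127 and 141 CPM in the mature roots (edgeR adjusted p = 0.0831). Proteasome subunits had a median of 0.03 over 23 rows and chaperones one of -0.02 over 123.

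Cell division genes showed small medians and no called row outside the tubulins. Cyclins and cyclin-dependent kinases, which drive the cell cycle, had a median log2 fold change of 0.5 over 63 tested rows, kinesins and spindle proteins 0.4 over 73, DNA replication proteins 0.39 over 47 and tubulins 0.44 over 19. These lists leaned to the tip. Every tip was above both mature roots in 20.6, 27.4, 27.7 and 31.6% of their rows, in that order, against 14.7% of all rows. Every tip was below both in 4.76, 9.59, 8.51 and 0%, against 18.5% of all rows. Histones, which package DNA, had a median of -0.04 over 45 rows, or 0.08 over 43 without the 2 rows of linker histone H1. They took 1.55, 1.41 and 0.948% of counts in the tips, against 1.36 and 1.61% in the mature roots, so the tissues overlapped. On day 6 the histone median was 0.77. The division rows with the smallest p included some that were high in mature root library 2 alone. The DNA polymerase alpha row LOC_Os01g64820 had 10.8, 7.33 and 10.7 CPM in the tips, against 17.1 and 289 CPM in the mature roots (edgeR adjusted p = 0.0743). The cyclin LOC_Os05g25950 had 0.898, 0 and 2.14 CPM in the tips, against 1.91 and 188 CPM in the mature roots (edgeR adjusted p = 0.0693). The linker histone H1 row LOC_Os06g04020 lay below both mature roots in every tip, with 392, 483 and 368 CPM in the tips, against 780 and 1950 CPM in the mature roots (edgeR adjusted p = 0.133). Among the proteasome rows, a regulatory subunit (LOC_Os06g39870-ext) had 20.7, 24.2 and 11.8 CPM in the tips, against 12.7 and 83.2 CPM in the mature roots (edgeR adjusted p = 0.375), and its sign turned without mature root library 2, to a log2 fold change of 0.56. The kinesin with the smallest p (LOC_Os05g38480) was instead high in tip library 2, with 12.6, 259 and 24.1 CPM in the tips, against 6.99 and 4.84 CPM in the mature roots (edgeR adjusted p = 0.162).

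Expansins loosen the walls of elongating cells. They had a median log2 fold change of 0.8 over 32 tested rows, and none was called. Every tip was above both mature roots in 11 rows (34.4%, against 14.7% of all rows) and below both in 2 (6.25%, against 18.5% of all rows). They took 0.31, 0.204 and 0.186% of counts in the tips, against 0.155 and 0.146% in the mature roots. The expansin with the smallest p, LOC_Os05g15690, had 26.9, 32.2 and 3.21 CPM in the tips, against 0 and 0.484 CPM in the mature roots (edgeR adjusted p = 0.0657). The 8 rows of the root cap and late embryogenesis related family, tied to the cap here by description only, were uneven between tips. Their counts summed to 416, 36 and 54 in the tips, against 21 and 30 in the mature roots. All 7 tested rows had a positive fold change, with a median of 3.47 on the log2 scale, and none was called. Most of that sum lay in tip library 1, for instance 97 CPM of LOC_Os01g73700 there, 4.4 and 2.67 CPM in the other tips, and 0.635 and 0 CPM in the mature roots (edgeR adjusted p = 0.0993). On day 6 the 8 rows summed to 56, 351 and 919 counts in the tips, against 105 and 354 in the mature roots, so the tissues overlapped. How far the uneven root cap counts bear on the other rows high in tip library 1 was not tested.

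**Figure D3:**
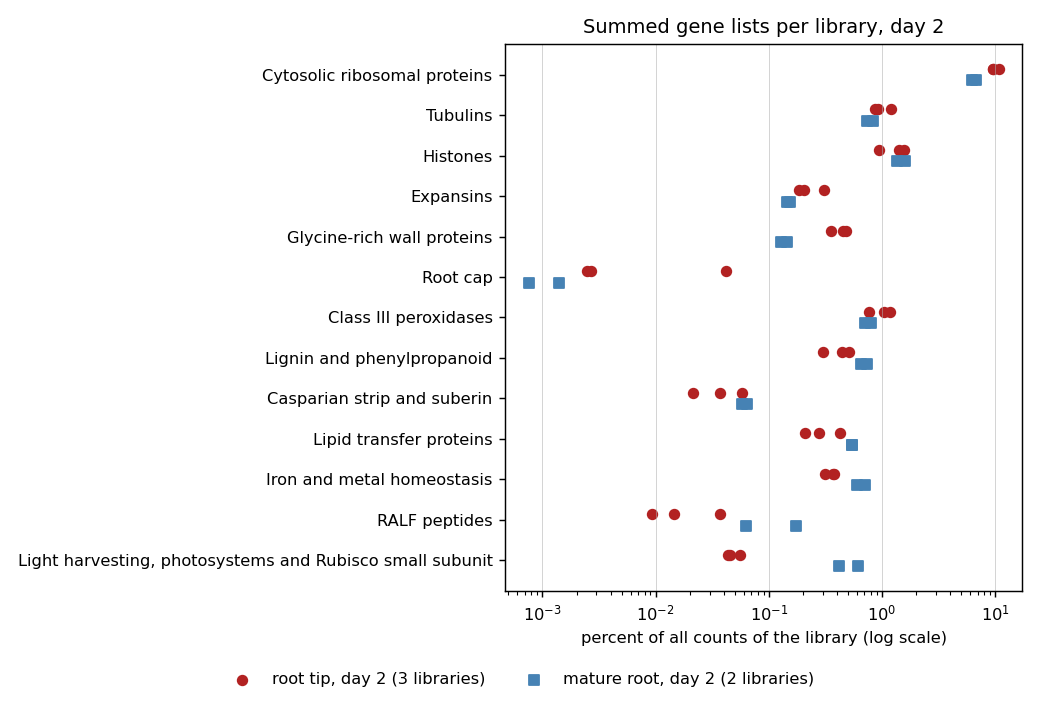
Percent of all counts of a library taken by the summed rows of a gene list, on a log axis, with 1 red circle for each of the 3 tip libraries and 1 blue square for each of the 2 mature root libraries of day 2. Ribosomal proteins, expansins and glycine-rich wall proteins lie to the right in the tips, the light harvesting list lies far to the left in them, histones overlap, and 1 tip library stands out for the root cap.

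Genes of the light reactions of photosynthesis formed the largest group of rows lower in the tip. Of 53 tested rows for light harvesting, photosystems, their electron carriers and the small subunit of Rubisco, 26 were called lower (49.1%, against 1.07% of all rows). None was called higher. In 44 every tip was below both mature roots (83%, against 18.5% of all rows), and 15 had no count in any tip. The median log2 fold change was -5.5, or -4.15 with the rows at 0 set at their bound, against 0 over all rows. The list took 0.045, 0.0432 and 0.0561% of counts in the tips, against 0.415 and 0.617% in the mature roots, so even there it was a small part of the RNA. Tips and mature root had both been in the light since the transfer, and whether light bears on this list was not tested. The number called lower was 13, 11 and 14 without tip library 1, 2 or 3. It was 22 and 11 without mature root library 1 or 2.

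Chlorophyll A-B binding proteins carry the antenna pigments of both photosystems. All 13 tested rows for them lay below both mature roots in every tip, as 18.5% of all rows did. This family and those of the next paragraph were formed after values had been seen. Summed over the family, chlorophyll A-B binding rows took 58.4 to 92 CPM in the tips and 2060 to 3840 CPM in the mature roots. Of the 13 tested rows 10 were called lower, against 1.07% of all rows. LOC_Os01g41710-ext had 1.8, 0 and 0.535 CPM in the tips, against 311 and 701 CPM in the mature roots (edgeR adjusted p = 0.00155). With 3 counts in all tips, its pooled ratio was 674-fold in favour of mature root, with a 95% Clopper-Pearson interval of 231 to 3270. LOC_Os06g21590 had 1 count in the tips, against 264 and 301 CPM in the mature roots (edgeR adjusted p = 0.00373; ratio 1210, interval 217 to 47900). LOC_Os04g38410 was low but present, at 1.8, 2.93 and 2.14 CPM in the tips, against 274 and 378 CPM in the mature roots, a log2 fold change of -7.11 ± 0.74 (edgeR adjusted p = 0.00248). Others were not found in any tip. LOC_Os03g39610 had 196 and 259 CPM in the mature roots and was at least 320-fold lower in the tip (edgeR adjusted p = 0.00864). LOC_Os08g33820 had 133 and 166 CPM there and was at least 211-fold lower (edgeR adjusted p = 0.00373), and LOC_Os02g10390 had 89.9 and 146 CPM and was at least 163-fold lower (edgeR adjusted p = 0.00759). Members of this family are alike in sequence, so single rows may share reads. Of these rows 7, 8 and 8 were called without tip library 1, 2 or 3. Leaving out mature root library 1 or 2 gave 9 and 7.

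The subunits of the reaction centres went the same way. Of 7 tested photosystem I subunits 5 were called lower, and of 7 photosystem II subunits 4, against 1.07% of all rows. In each set all 7 lay below both mature roots in every tip, as 18.5% of all rows did. Photosystem I subunit III (LOC_Os03g56670-ext), which docks the soluble electron donor, had no count in any tip, against 53 and 89.5 CPM in the mature roots, at least 97.8-fold lower (edgeR adjusted p = 0.00489). Subunit N (LOC_Os12g08770) had none either, against 16.2 and 116 CPM, at least 80.6-fold lower (edgeR adjusted p = 0.0122), and lost its call without tip library 2 or mature root library 2 (highest edgeR adjusted p over the alternatives 0.0798). PsbP (LOC_Os07g04840), of the oxygen-evolving complex, had no count in any tip, against 35.6 and 226 CPM, at least 161-fold lower (edgeR adjusted p = 0.00963). The 2 mature root pools thus differed by more than 6-fold in PsbP and in subunit N, although both stood above every tip. The small subunit of Rubisco, the enzyme that fixes carbon dioxide, had 4 tested rows, of which 2 were called lower, against 1.07% of all rows. One of them, LOC_Os12g19381-ext, had no count in any tip, against 76.5 and 130 CPM in the mature roots, at least 142-fold lower (edgeR adjusted p = 0.00599).

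The list of chlorophyll synthesis and Calvin cycle rows did not move as a whole. Of 26 tested rows in a list formed after values had been seen, 4 were called lower (15.4%, against 1.07% of all rows). None was called higher, and the median log2 fold change was -0.17. Protochlorophyllide reductase A (LOC_Os04g58200-ext), which makes the light-driven step of chlorophyll synthesis, had no count in any tip, against 42.5 and 52.8 CPM in the mature roots, at least 67.5-fold lower (edgeR adjusted p = 0.0091). CP12 (LOC_Os03g19380), a small regulator of Calvin cycle enzymes, had 1 count in the tips, against 66.7 and 111 CPM in the mature roots (edgeR adjusted p = 0.00864; ratio 366, interval 65.3 to 14500). Both stayed called whichever day 2 library was left out, but the list as a whole then had 2 calls, or 3 without mature root library 1. A glyceraldehyde-3-phosphate dehydrogenase (LOC_Os03g03720-ext), an enzyme of glycolysis and the Calvin cycle, had no count in any tip, against 46.4 and 62.9 CPM in the mature roots, at least 76.7-fold lower (edgeR adjusted p = 0.00759). A protein with a 2Fe-2S iron-sulfur cluster domain (LOC_Os08g01380) had none either, against 44.5 and 56.1 CPM, at least 71.1-fold lower (edgeR adjusted p = 0.0126). The iron-sulfur row lost its call without tip library 2 or mature root library 2 (highest edgeR adjusted p over the alternatives 0.0606).

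Genes of suberin, lipid transfer and lignin were lower in the tip where they were called, as were 92.8% of all called rows. Called peroxidases lay on both sides. The suberin and Casparian strip list had 16 tested rows, of which 4 were called lower (25%, against 1.07% of all rows). In 9 every tip was below both mature roots (56.2%, against 18.5% of all rows) and in 2 above both (12.5%, against 14.7%). The median log2 fold change was -2.8, or -2.48 with rows at 0 at their bound. LOC_Os08g44360, described as male sterility protein 2, a fatty acyl reductase in Arabidopsis, had 0.898, 0.733 and 4.81 CPM in the tips, against 194 and 363 CPM in the mature roots, a log2 fold change of -6.87 ± 0.8 (edgeR adjusted p = 0.00373). It kept its call in every leave-out. A 3-ketoacyl-CoA synthase (LOC_Os05g49900), which lengthens fatty acids, had no count in any tip, against 39.4 and 14 CPM in the mature roots, at least 42.5-fold lower (edgeR adjusted p = 0.0169). The summed counts of the list told less, at 0.0367, 0.0578 and 0.0212% in the tips, against 0.0584 and 0.0645% in the mature roots. The list had 1 row called whichever tip library was left out, and 3 and 2 without mature root library 1 or 2. In the DUF588 family, to which the Casparian strip membrane proteins belong, none of 21 tested rows was called, and the row with the smallest p (LOC_Os05g15630) had no count in any tip, against 9.84 and 5.81 CPM in the mature roots (edgeR adjusted p = 0.0512).

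Lipid transfer proteins carry lipids in the wall space, and 6 of 47 tested rows were called lower (12.8%, against 1.07% of all rows). None was called higher, and the median log2 fold change was -0.7. LTPL116 (LOC_Os03g01320) had no count in any tip, against 37.5 and 23.2 CPM in the mature roots, at least 46.1-fold lower (edgeR adjusted p = 0.0122). LTPL118 (LOC_Os03g50960-ext) had 16.2, 20.5 and 38.5 CPM in the tips, against 176 and 280 CPM in the mature roots (log2 fold change -3.17 ± 0.52, edgeR adjusted p = 0.0142). Leaving out tip library 1, 2 or 3 gave 4, 0 and 2 calls, and leaving out mature root library 1 or 2 gave 5 and 1. Lignin and phenylpropanoid genes had a median of -1.06 over 57 rows. Every tip was below both mature roots in 22 of them (38.6%, against 18.5% of all rows), and 1 row was called (1.75%, against 1.07% of all rows), the caffeoyl-CoA O-methyltransferase LOC_Os08g38910-ext, which methylates lignin precursors. It had no count in any tip, against 11.1 and 37.8 CPM in the mature roots, at least 31.4-fold lower (edgeR adjusted p = 0.0405). It lost the call without any 1 of the tips or mature root library 2 (highest edgeR adjusted p over the alternatives 0.18). Peroxidases went both ways, with 2 of 90 called higher, as described above, and 2 lower. Together these were 4.44% of the tested peroxidases, against 1.15% of all rows. LOC_Os08g02110 had 42.2, 31.5 and 32.6 CPM in the tips, against 228 and 560 CPM in the mature roots (log2 fold change -3.47 ± 0.47, edgeR adjusted p = 0.00759). LOC_Os06g16350 had 2 counts in the tips, against 20.3 and 37.3 CPM in the mature roots (edgeR adjusted p = 0.0352; ratio 58.8, interval 16 to 490). Without mature root library 2 no peroxidase was called. Without any 1 of the tips, 1 was called lower and none higher.

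Wall-modifying enzymes were balanced, with 81 tested rows for xyloglucan, pectin and cellulose modification and a median of 0.22. In this list 2 rows were called lower (2.47%, against 1.07% of all rows), both inhibitors of pectin enzymes. A polygalacturonase inhibitor (LOC_Os05g01370-ext) had 1 count in the tips, against 32.1 and 31.9 CPM in the mature roots (edgeR adjusted p = 0.00759; ratio 139, interval 24.6 to 5530). A pectinesterase inhibitor domain protein (LOC_Os05g05640-ext) had 0.898, 0.733 and 3.21 CPM in the tips, against 42.2 and 84.2 CPM in the mature roots (log2 fold change -5.14 ± 0.72, edgeR adjusted p = 0.00841). It lost the call without mature root library 2 (highest edgeR adjusted p over the alternatives 0.0688). No row was called among 30 cellulose synthases and related enzymes or among 23 arabinogalactan and fasciclin proteins. Among the first the smallest p was that of CSLF7 (LOC_Os10g20260), with 6.29, 4.4 and 4.81 CPM in the tips, against 8.26 and 31 CPM in the mature roots (edgeR adjusted p = 0.275). Among the second it was an arabinogalactan protein (LOC_Os03g56944), with none in the tips, against 6.35 and 10.6 CPM in the mature roots (edgeR adjusted p = 0.086).

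Metallothioneins, small proteins rich in cysteine that bind zinc and copper, held the row with the smallest p of the day 2 contrast. LOC_Os01g74300 had 1.8, 2.93 and 7.49 CPM in the tips, against 846 and 1520 CPM in the mature roots, a log2 fold change of -8.09 ± 0.73 or 273-fold lower (edgeR adjusted p = 0.00138). It was called under every alternative tried, the 5-library fit included. LOC_Os01g05650 had 3.59, 7.33 and 10.2 CPM in the tips, against 113 and 164 CPM in the mature roots (log2 fold change -4.26 ± 0.64, edgeR adjusted p = 0.01). Of 9 tested metallothionein rows, a family formed after values had been seen, 4 were called lower, against 1.07% of all rows. Summed over the family they took 268 to 367 CPM in the tips and 1940 to 3430 CPM in the mature roots. They supplied 4 of the 5 calls of the iron and metal list, which had 82 tested rows, none called higher and a median of -0.46. Those 5 calls were 6.1% of the list, against 1.07% of all rows. The metallothionein rows called were 1, 2 and 2 without tip library 1, 2 or 3. Without mature root library 1 or 2 they were 3 and 1.

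Transporters of ions and nitrogen were lower in the tip where they were called, as were 92.8% of all called rows. OsHKT1;5 (LOC_Os01g20160), which in rice draws sodium out of the xylem, had no count in any tip, against 35.6 and 14.5 CPM in the mature roots, at least 39.5-fold lower (edgeR adjusted p = 0.0142). A sulfate transporter (LOC_Os01g45830) had 2.69, 0.733 and 2.67 CPM in the tips, against 12.4 and 107 CPM in the mature roots (log2 fold change -4.83 ± 0.9, edgeR adjusted p = 0.0262). These were the 2 called of 47 tested mineral nutrient transporters (4.26%, against 1.07% of all rows), whose median was -0.68. Peptide and amino acid transporters had 4 of 106 rows called lower (3.77%, against 1.07% of all rows), none higher, and a median of -0.71. All 4 belonged to the PTR2 family of peptide and nitrate carriers. LOC_Os02g46460 had 14.4, 8.06 and 21.4 CPM in the tips, against 169 and 306 CPM in the mature roots (log2 fold change -4.01 ± 0.59, edgeR adjusted p = 0.0091). LOC_Os01g65140-ext had 28.7, 17.6 and 19.8 CPM in the tips, against 171 and 384 CPM in the mature roots (-3.66 ± 0.56, edgeR adjusted p = 0.01). Whichever tip library was left out, 1 peptide transporter row was called and no mineral transporter. Without mature root library 1 or 2 the calls were 4 and 2 peptide and 2 and 1 mineral transporters.

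Other uptake and nitrogen lists held no called row. Aquaporins, which let water through membranes, took 1.01, 0.675 and 0.651% of counts in the tips, against 0.848 and 0.859% in the mature roots, and LOC_Os02g51110 had 1250, 1180 and 1100 CPM in the tips, against 2080 and 3890 CPM (edgeR adjusted p = 0.145). A sugar carrier of the nodulin MtN3 family (LOC_Os02g19820) had 0, 2.2 and 0 CPM in the tips, against 27.9 and 15 CPM in the mature roots (edgeR adjusted p = 0.0553). An ABC transporter (LOC_Os12g37580-ext) had 0, 2.2 and 0.535 CPM in the tips, against 29.2 and 8.23 CPM (edgeR adjusted p = 0.102). A glutamine synthetase (LOC_Os03g12290), which assimilates ammonium, had 53.9, 16.1 and 43.3 CPM in the tips, against 116 and 300 CPM in the mature roots (edgeR adjusted p = 0.0662). In each of these 4 rows, which are those of smallest p in their lists, every tip lay below both mature roots, as in 18.5% of all tested rows. The lists did not all lean that way. Their median log2 fold change was 0.37 for aquaporins, 0.11 for sugar transporters and sucrose metabolism, -0.17 for ABC transporters and -0.77 for nitrogen assimilation. Among the aquaporins every tip was above both mature roots in 30% of the tested rows and below both in 20%.

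Genes linked to hormones were lower in the tip where called, and no hormone list had a called row that was higher. That direction does not set them apart, since 92.8% of all called rows were lower. Abscisic stress-ripening proteins are small hydrophilic proteins induced by abscisic acid and drought. In this family, formed after values had been seen, 3 of 4 tested rows were called lower, against 1.07% of all rows. LOC_Os01g73250-ext had no count in any tip, against 45.4 and 43.1 CPM in the mature roots, at least 64.5-fold lower (edgeR adjusted p = 0.0091). LOC_Os04g34600 had 2 counts in the tips, against 94.6 and 139 CPM in the mature roots (edgeR adjusted p = 0.0091; ratio 244, interval 67.3 to 2020). Both kept their calls in every leave-out. They were the only kind of protein called in the list of abscisic acid and late embryogenesis proteins. Its 21 tested rows had a median of 0.37, and 7 of them are the root cap rows, whose counts lay mostly in tip library 1. The 10 rows that are of neither kind had a median of 0.25. An aminocyclopropane carboxylate oxidase (LOC_Os02g53180-ext), which makes ethylene, had 2 counts in the tips, against 21.6 and 145 CPM in the mature roots (edgeR adjusted p = 0.00841; ratio 153, interval 42.2 to 1270). It lost the call without mature root library 2 (highest edgeR adjusted p over the alternatives 0.0702).

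For auxin, 2 of 99 rows were lower (2.02%, against 1.07% of all rows), but the list did not lean to either tissue. Its median log2 fold change was 0.09. Every tip was above both mature roots in 19.2% of its rows, against 14.7% of all rows. In 20.2% every tip was below both, against 18.5% of all rows. An efflux carrier (LOC_Os09g32770-ext) had 1 count in the tips, against 41 and 17.4 CPM in the mature roots (edgeR adjusted p = 0.016; ratio 138, interval 24.3 to 5470). The repressor OsIAA16 (LOC_Os05g09480) had 0.898, 1.47 and 5.88 CPM in the tips, against 22.2 and 53.2 CPM in the mature roots (log2 fold change -3.66 ± 0.74, edgeR adjusted p = 0.038). Among 45 gibberellin rows 2 described as receptor GID1L2 were lower (4.44%, against 1.07% of all rows). LOC_Os07g44890 had 1 count in the tips, against 4.76 and 86.2 CPM in the mature roots, which were themselves 18.1-fold apart (edgeR adjusted p = 0.0315; ratio 161, interval 28.5 to 6390). LOC_Os11g13570 had 1.8, 1.47 and 0 CPM in the tips, against 52.1 and 25.2 CPM (log2 fold change -5.22 ± 1.01, edgeR adjusted p = 0.0327). A cytokinin-O-glucosyltransferase (LOC_Os02g51910), of a family that stores cytokinin as a glucoside, had 0.898, 1.47 and 0.535 CPM in the tips, against 40.3 and 16 CPM in the mature roots (log2 fold change -4.83 ± 0.78, edgeR adjusted p = 0.013). A ZIM domain protein (LOC_Os03g08320), of the family of jasmonate repressors, had 1.8, 2.93 and 0.535 CPM in the tips, against 45.7 and 24.7 CPM (log2 fold change -4.34 ± 0.93, edgeR adjusted p = 0.0469). None of these 6 rows kept its call in every leave-out, and their highest edgeR adjusted p over the alternatives lay between 0.0717 and 0.355.

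RALF peptides are secreted signals that raise the pH of the wall space. In a list formed after values had been seen, 3 of 17 tested rows were called lower (17.6%, against 1.07% of all rows). The summed list took 0.0367, 0.0144 and 0.00934% of counts in the tips, against 0.0628 and 0.175% in the mature roots. RALFL27 (LOC_Os10g41999-ext) had 2 counts in the tips, against 67.9 and 156 CPM in the mature roots (edgeR adjusted p = 0.00759; ratio 224, interval 61.7 to 1850). It kept its call in every leave-out. RALFL26 (LOC_Os10g41980), next to it by locus number, had 2.69, 10.3 and 2.14 CPM in the tips, against 147 and 1260 CPM in the mature roots (log2 fold change -7.12 ± 0.99, edgeR adjusted p = 0.00841). Mature root library 2 was 8.56-fold above library 1 in that row, and without it the call was lost (highest edgeR adjusted p over the alternatives 0.0616). The list had 2 calls whichever tip was left out, and 1 without mature root library 2.

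Enzymes of specialised metabolism lay below the mature root by their medians, with few calls. Cytochromes P450, oxidases of hormone and defence compound pathways, had 5 of 121 tested rows lower (4.13%, against 1.07% of all rows). None was higher, and the median was -1.01. LOC_Os09g27500 had 31.4, 17.6 and 11.8 CPM in the tips, against 232 and 204 CPM in the mature roots (log2 fold change -3.44 ± 0.53, edgeR adjusted p = 0.011). LOC_Os02g57290-ext had 5.39, 8.8 and 20.9 CPM in the tips, against 131 and 145 CPM (log2 fold change -3.53 ± 0.62, edgeR adjusted p = 0.0188). The mature root pools agreed closely in both. Terpene synthases had a median of -3.57 over 12 rows, or -2.65 with rows at 0 at their bound, and 1 call (8.33%, against 1.07% of all rows). It was LOC_Os03g22620, with 3 counts in the tips, against 18.4 and 34.4 CPM in the mature roots (edgeR adjusted p = 0.0472; ratio 35.8, interval 12 to 176). Of 84 glycosyltransferases 2 were called lower (2.38%, against 1.07% of all rows). Beside the cytokinin enzyme this was LOC_Os11g38650, with 2 counts in the tips, against 18.4 and 61 CPM in the mature roots (edgeR adjusted p = 0.0144; ratio 76.7, interval 20.9 to 638). No glutathione S-transferase of 46 was called, and LOC_Os01g72170 had 3.59, 5.13 and 2.14 CPM in the tips, against 24.1 and 43.1 CPM (edgeR adjusted p = 0.0523). The P450 rows called were 1, 0 and 2 without tip library 1, 2 or 3, and 3 and 0 without mature root library 1 or 2. The terpene synthase lost its call without any 1 of the 5 day 2 libraries, and the glycosyltransferase LOC_Os11g38650 without any 1 of the tips or mature root library 2 (highest edgeR adjusted p over the alternatives 0.219 for LOC_Os03g22620 and 0.102 for LOC_Os11g38650).

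Defence and signalling lists had scattered calls, all lower in the tip, as were 92.8% of all called rows. Chitinases, glucanases and pathogenesis-related proteins had 5 of 122 rows called (4.1%, against 1.07% of all rows) and a median of -0.73. The SCP-like extracellular protein LOC_Os10g11500-ext had 101, 66 and 81.8 CPM in the tips, against 461 and 787 CPM in the mature roots (log2 fold change -2.91 ± 0.41, edgeR adjusted p = 0.0085). The family 17 glycosyl hydrolase LOC_Os01g51570-ext had 1.8, 1.47 and 3.21 CPM in the tips, against 52.7 and 40.2 CPM (-4.35 ± 0.66, edgeR adjusted p = 0.01). Receptor-like kinases, the membrane receptors of many peptide signals, had 3 of 234 called (1.28%, near the 1.07% of all rows) and a median of -0.21. One was described as HAIKU2, which in Arabidopsis acts in seed growth (LOC_Os12g43640; 3.59, 6.6 and 2.67 CPM in the tips, against 137 and 66.3 CPM in the mature roots, log2 fold change -4.56 ± 0.78, edgeR adjusted p = 0.0168). Another was described as associated with the brassinosteroid receptor (LOC_Os11g31540; 2 counts in the tips, against 22.2 and 23.7 CPM in the mature roots, edgeR adjusted p = 0.0305; ratio 49.6, interval 13.4 to 414). Of 154 NBS-LRR resistance proteins 1 was called, which is near the 1.07% of all rows: LOC_Os11g11960-ext had 3 counts in the tips, against 33 and 15 CPM in the mature roots (edgeR adjusted p = 0.0472; ratio 37.5, interval 12.6 to 184).

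Proteases had 2 of 94 rows called lower (2.13%, against 1.07% of all rows). The aspartic proteinase LOC_Os09g30414 had 46.7, 27.9 and 16.6 CPM in the tips, against 291 and 363 CPM in the mature roots (log2 fold change -3.44 ± 0.55, edgeR adjusted p = 0.013). The subtilisin-like LOC_Os09g30458 had 2.69, 4.4 and 1.6 CPM in the tips, against 43.8 and 28.1 CPM in the mature roots (-3.63 ± 0.67, edgeR adjusted p = 0.0255). Chaperones, which help other proteins fold, had 2 of 123 called lower (1.63%, against 1.07% of all rows). The hsp20 protein LOC_Os03g45340 had 2.69, 0.733 and 1.6 CPM in the tips, against 13.7 and 51.3 CPM in the mature roots (-4.26 ± 0.85, edgeR adjusted p = 0.0358). The DnaJ protein LOC_Os03g18200-ext had 1.8, 1.47 and 4.28 CPM in the tips, against 14.6 and 31.9 CPM in the mature roots (-3.12 ± 0.68, edgeR adjusted p = 0.0472). No germin-like protein of 25 was called, and LOC_Os08g09080-ext had 0, 5.86 and 3.74 CPM in the tips, against 43.8 and 46 CPM in the mature roots (edgeR adjusted p = 0.171). Of the called defence, protease and chaperone rows named here, none kept its call in every leave-out of a day 2 library, and their highest edgeR adjusted p over the alternatives lay between 0.0581 and 0.284.

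Transcription factors called on day 2 were few and all lower in the tip apart from the GATA row. Of all called rows 92.8% were lower. MYB factors, a family that includes regulators of phosphate response and of secondary walls, had 4 of 119 rows called lower (3.36%, against 1.07% of all rows). They took 0.514, 0.529 and 0.631% of counts in the tips, against 0.959 and 1.23% in the mature roots. LOC_Os08g43550 had 119, 58.6 and 85.6 CPM in the tips, against 505 and 1110 CPM in the mature roots (log2 fold change -3.21 ± 0.67, edgeR adjusted p = 0.0406). LOC_Os12g37970-ext had 48.5, 84.3 and 89.8 CPM in the tips, against 379 and 442 CPM (-2.46 ± 0.52, edgeR adjusted p = 0.0457). Homeobox leucine zipper factors supplied both calls among 89 homeobox, GRAS and growth-regulating rows (2.25%, against 1.07% of all rows). LOC_Os03g12860-ext had 19.8, 9.53 and 15.5 CPM in the tips, against 124 and 149 CPM in the mature roots (-3.19 ± 0.58, edgeR adjusted p = 0.0224). LOC_Os02g49700-ext had 119, 91.6 and 143 CPM in the tips, against 485 and 462 CPM (-2.01 ± 0.37, edgeR adjusted p = 0.024). The list rests on words in descriptions, so it need not take in every such factor. LOC_Os02g10360-ext, described as MONOCULM 1, lay outside it and was called lower (fitted log2 fold change -6.49), though not in every leave-out. OsWRKY9 (LOC_Os01g18584) had 1 count in the tips, against 27 and 12.6 CPM in the mature roots (edgeR adjusted p = 0.016; ratio 92.5, interval 16.3 to 3690). No MYB and no homeobox row was called without any 1 of the tips or mature root library 2. OsWRKY9 lost its call without any 1 of the tips (highest edgeR adjusted p over the alternatives 0.0765).

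The NAC family had no called row, although 27 of 54 tested rows (50%, against 18.5% of all rows) had every tip below both mature roots and its median was -0.85. Its row with the smallest p, LOC_Os02g36880, had 18, 11.7 and 30.5 CPM in the tips, against 80.6 and 350 CPM in the mature roots (edgeR adjusted p = 0.0523). Of the AP2/ERF and bHLH families no row was called either. LOC_Os02g51670-ext, described as an ethylene-responsive factor, had 177, 141 and 116 CPM in the tips, against 361 and 615 CPM in the mature roots (edgeR adjusted p = 0.0729). The bHLH row LOC_Os10g40740 had none in the tips, against 3.49 and 14 CPM (edgeR adjusted p = 0.0784).

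**Figure D4:**
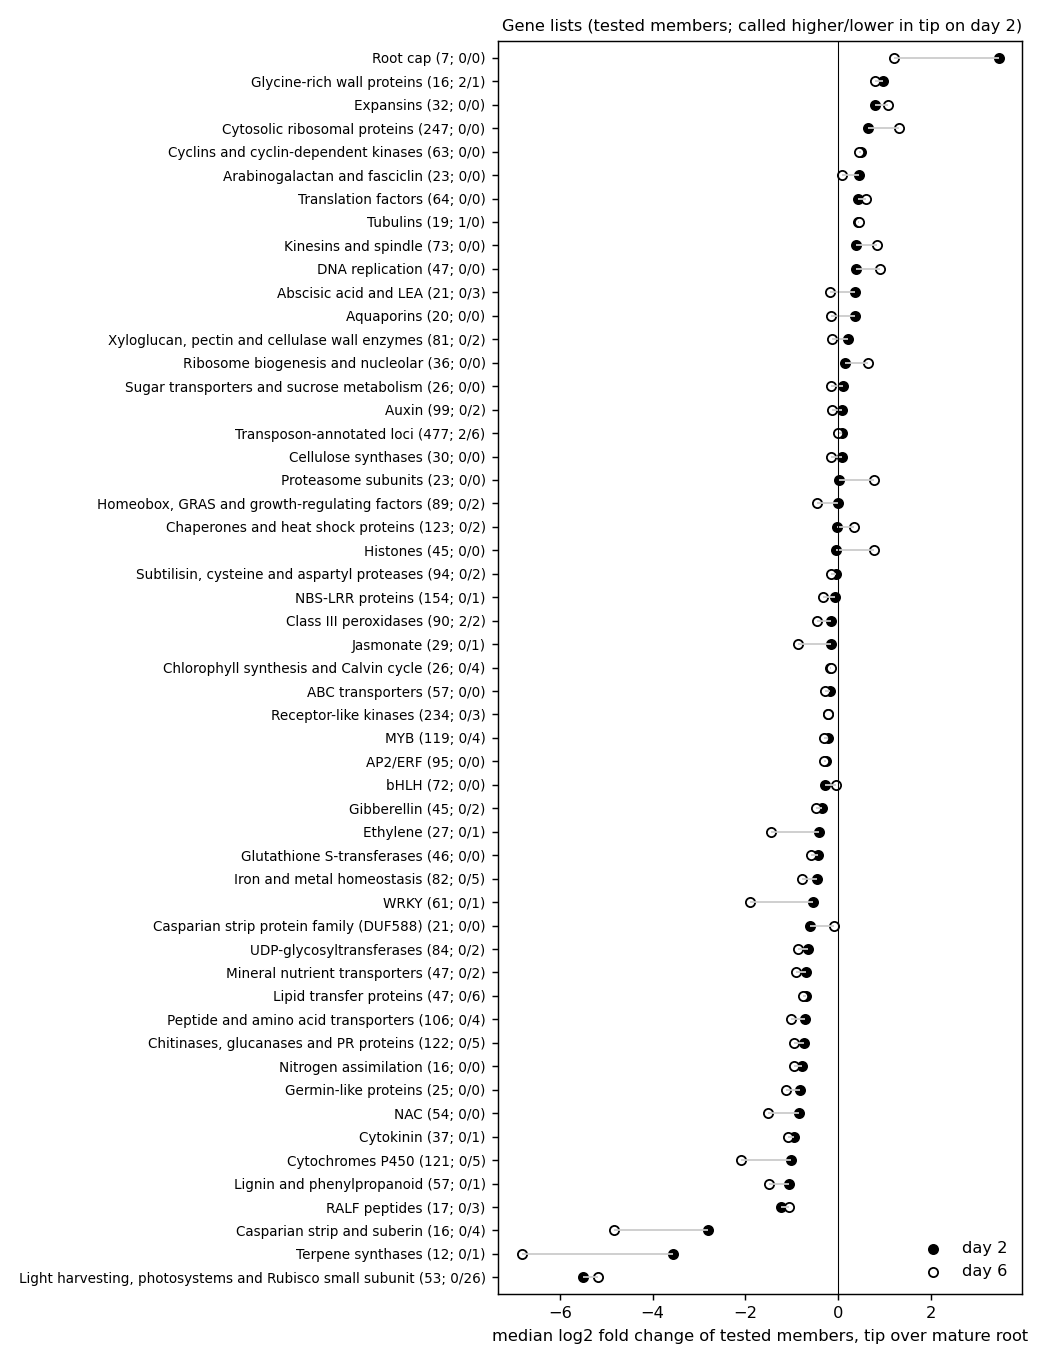
Median fitted log2 fold change of tip over mature root for the tested rows of 53 gene lists, on day 2 (filled) and day 6 (open), with the number of tested rows and of rows called higher and lower in the tip on day 2 in each label. Light harvesting, terpene synthase and suberin lists lie furthest to the left, all with rows absent from the tips that pull the fitted median down, and the root cap list, which 1 tip library leads, lies furthest to the right.

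Whether these differences belonged to day 2 was asked by setting the same contrast of day 6 beside it. Its libraries are others, but both days share 1 estimate of spread, so the calls of the days are not independent. On day 6 the test called 1361 rows (7.08%), 255 higher (1.33%) and 1106 lower (5.75%) in the tip. Of the 205 rows lower on day 2, 161 were also called lower on day 6 and 202 had a negative fold change there. In 196 every day 6 tip lay below both day 6 mature roots, as in 22.8% of all tested rows. Of the 16 higher rows, 7 were called again and all 16 had a positive fold change. The 168 rows called on both days made up 76% of the day 2 calls and 12.3% of the day 6 calls. The day 6 count also rested on single pools, with 113 and 818 calls without mature root day 6 library 1 or 2 and 379 and 748 without tip day 6 library 2 or 3. It was 863 and 843 without mature root day 2 library 1 or 2. The 16 higher rows had a median log2 fold change of 1.66 on day 6, against 4.45 on day 2 where they had been picked, and rows picked by a test tend to be larger in the data that picked them.

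**Figure D5:**
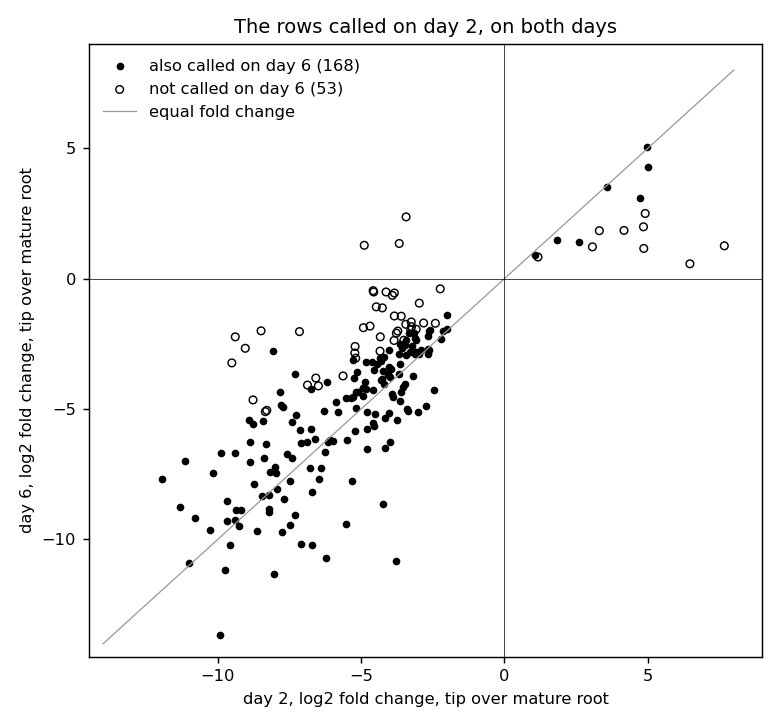
Fitted log2 fold change of tip over mature root on day 2 (horizontal) and day 6 (vertical) for the 221 rows called on day 2, filled where also called on day 6. The 168 filled points lie in the same quadrant on both days, 3 rows called lower on day 2 lie above 0 on day 6, and the grey line marks equal fold changes.

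The difference between the days was then tested itself. By edgeR's test no row passed an adjusted p of 0.05, the smallest adjusted p was 0.513, and 1821 rows had an unadjusted p under 0.05. The DESeq2 test called 97 rows, and edgeR called 554 without the filter on low counts and 2 without mature root day 6 library 2. The 5 rows with the smallest p are given as values. The metallothionein LOC_Os01g74300 had a log2 fold change of -8.09 on day 2 and -2.76 on day 6, where the tips had 20, 30.9 and 66.5 CPM and the mature roots 290 and 244 CPM (difference -5.33 ± 0.9, unadjusted p = 5.67e-05 by edgeR). The tips had higher values on day 6 than on day 2 and the mature roots lower ones. A pfkB family kinase (LOC_Os03g06880) was called lower on day 2 with 2.69, 13.2 and 9.63 CPM in the tips, against 42.5 and 145 CPM in the mature roots (edgeR adjusted p = 0.0429, at most 0.334 over the alternatives). It had 25.4, 43.4 and 38.2 CPM in the tips of day 6, against 5.81 and 7.82 CPM in the mature roots. A growth regulating factor (LOC_Os02g53690), of a family active in dividing cells, had 13.5, 16.1 and 14.4 CPM in the tips of day 2, against 37.1 and 197 CPM in the mature roots. It had 64.7, 51.6 and 32.3 CPM in the tips of day 6, against 5.81 and 11.3 CPM. The hypothetical protein LOC_Os04g51680-ext and the expressed protein LOC_Os07g48280 went the other way, with log2 fold changes of 0.97 and 1.39 on day 2 and of -4.38 and -2.91 on day 6. The plants of day 6 were also older, so the time since transfer cannot be told apart from age or from the sampling itself.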

How the data were processed

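The authors deposited a table of raw whole-number read counts per gene, not normalized, as the header and the whole-number values show, per the file headers. Per the submitters' processing notes, the tools included Bowtie, SAMtools 0.1.12a, TopHat 1.3.1 and Cufflinks 1.0.3. Genome build, counting tool and strand setting: not given in the sources used here. Without strand, a gene and its antisense partner cannot be told apart. What the ending -ext of 8573 rows stands for is not given either. Gene descriptions are those of the table, and 2610 rows have none.

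From these, edgeR 4.0.16 in R 4.3.3 was run with filterByExpr (minimum count 10, total 15), TMM scaling, a quasi-likelihood fit of all 10 libraries with 1 mean per group (4 groups), and Benjamini-Hochberg adjustment over all 19234 tested rows, called at an adjusted p under 0.05. The spread was estimated over all 4 groups because mature root has only 2 libraries on each day. CPM are TMM-scaled, and for correlations a prior count of 2 was added before taking log2. A row at 0 in a tissue is given as a bound from 3 counts over the group, and one with 1 to 3 counts as a ratio of summed counts with an exact 95% interval. The steps were tested on simulated data of the day 2 contrast, in which the spread of a row depended on its abundance alone. Of rows given a 4-fold difference 10% were called, and of rows given a 16-fold difference 73%. Of the unchanged rows 6 were called. A row that was not called can thus still differ between the tissues. Results were recomputed without the filter or with one of at least 5 CPM in 2 libraries, with scaling by library totals or by DESeq2 1.42.0 size factors, and with robust dispersion. Further alternatives were the test of DESeq2, a block for replicate number, a fit of the day 2 libraries alone, thinning to the lowest total, and leaving out single libraries. Where that left 1 mature root pool, it was assumed to vary as the other groups do.

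The members, the 53 gene lists (patterns on descriptions, 1 row may be in several) and the tests were chosen with earlier results of these data known. Genes were named by rule: for each direction, the 12 called rows with an informative description (transposon annotations and expressed or hypothetical proteins left out) that did not overlap, reached 10 CPM in the higher tissue and had the largest fold change; from each list, the 2 called rows of smallest p per direction, or where none was called the 1 of smallest p; and 5 rows for the difference between days, also by p. Families within lists were formed after values had been seen. No sequences or coordinates are shown.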

Additional observations from a re-analysis of the deposited data

How the results depend on the processing

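None of the 76 called rows named changed sign under an alternative, but the number of calls depended strongly on the setting. On day 2, against 221 calls (16 higher, 205 lower in the tip), edgeR without the low-count filter called 1734 (487 higher, 1247 lower; 71.9% lower against 92.8%), the DESeq2 test 1034 (237 and 797; 77.1% lower), the fit of the 5 day 2 libraries 4 (0 and 4, with 2696 rows at an unadjusted p under 0.05), thinning to the lowest total 166 (10 and 156), and the fit with the replicate number as a block 135 (9 and 126). Leaving out 1 library gave 42 to 312 calls, 0 to 15 higher and 40 to 308 lower. Of 76 called rows named, 53 kept the call with the block. Same-numbered libraries did not deviate together (correlations of -0.0447 to 0.023), so the numbers were not taken to pair the pools. On day 6, against 1361 calls, no filter gave 2981, the DESeq2 test 2741, the block 579, thinning 735 and leaving out 1 library 113 to 1379. The difference between days, with 0 calls, had 554 without the filter, 97 by DESeq2 and 0 to 2 when 1 library was left out. The uncalled proteasome row LOC_Os06g39870-ext ranged from -2.16 to 0.56 in log2 fold change when 1 library was left out, and was positive without mature root day 2 replicate 2. The cause of these changes was not tested. Scaling by library totals or DESeq2 size factors gave 289 and 225 calls, robust dispersion 213 and the 5 CPM filter 223. With 986907 counts in the smallest tip library, a row near the limit of 2.69 CPM rests on about 3 counts there.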

Other observations

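Of the 205 rows lower in the tip on day 2, 36 had no informative description, and so had 3 of the 16 higher ones; 4 of the called rows were transcribed regions without any annotation. The rows named here beyond the gene lists were chosen after their values had been seen. The neighbouring loci LOC_Os04g11030, LOC_Os04g11040-ext, LOC_Os04g11050 and LOC_Os04g11060, all described only as expressed protein, were each called lower. LOC_Os04g11030 had 0, 0 and 0.535 CPM in the tips, against 53 and 46.9 CPM in the mature roots (edgeR adjusted p = 0.00841), and kept its call whichever day 2 library was left out. LOC_Os02g11040, also described as expressed protein, was higher in the tip, with 216, 126 and 383 CPM there, against 11.7 and 6.29 CPM in the mature roots (edgeR adjusted p = 0.0263). A GDSL lipase (LOC_Os01g11700) had 5.39, 2.2 and 7.49 CPM in the tips and no count in the mature roots (edgeR adjusted p = 0.0472). These higher rows were not called in any fit that left out a day 2 library.

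Among 477 tested rows annotated as transposon or retrotransposon proteins, 8 were called (1.68%, against 1.15% of all rows), 2 higher and 6 lower, and the median log2 fold change was 0.09. Without any 1 of the tips 1 row was called, lower, and without mature root library 1 or 2 there were 8 and 4 lower and 1 and 0 higher. The abundant row LOC_Os04g34170-ext had 6040, 6720 and 6040 CPM in the tips, against 2700 and 3320 CPM in the mature roots (log2 fold change 1.06 ± 0.22, edgeR adjusted p = 0.0405), and LOC_Os10g36980 had 74.5, 64.5 and 62.6 CPM in the tips, against 9.84 and 3.39 CPM (3.31 ± 0.71, edgeR adjusted p = 0.0469). On the lower side, LOC_Os05g13900 had 1 count in the tips, against 34.9 and 64.9 CPM in the mature roots (edgeR adjusted p = 0.00759; ratio 203, interval 36.2 to 8070), and LOC_Os07g40850 had 1.8, 0.733 and 1.6 CPM in the tips, against 11.4 and 40.7 CPM (log2 fold change -4.18 ± 0.78, edgeR adjusted p = 0.0262).

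Several rows called lower were high in mature root library 2 alone. An enoyl-CoA hydratase (LOC_Os01g47350) had 0.898, 0 and 0 CPM in the tips, against 5.4 and 254 CPM in the mature roots, and a SNF2 family protein (LOC_Os02g32570) had 3.59, 8.06 and 4.81 CPM in the tips, against 13.7 and 318 CPM (edgeR adjusted p = 0.0258 and 0.0358). Each was called in 1 of the 5 fits that left out a day 2 library. The rows LOC_Os12g28177-ext and LOC_Os12g28137, both described as ATPase 3 and both called lower, held identical counts in all libraries and count as 1 measurement.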
